A study of Mus musculus with 6 samples.

Results

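Epithelial-mesenchymal transition (EMT) is driven by a small set of DNA-binding proteins, and 10 of their genes, Snai1, Snai2, Twist1, Twist2, Zeb1, Zeb2, Prrx1, Tcf4, Tbx3 and Foxc2, are described here in mouse colorectal cancer cells with and without SEMA6A overexpression. The members were taken by gene symbol, each symbol matched 1 of the 53700 genes listed, and 9 of the 10 reached the mean of 1 TPM, a unit of transcript abundance scaled by length and library total, needed for testing, as did 12510 genes in all. SL4 is a luciferase-expressing mouse CRC cell line. The pLV-Control group held 3 RNA-seq libraries of SL4 cells without overexpression of SEMA6A, and the pLV-SEMA6A group held 3 libraries of SL4 cells transduced with a lentivirus for SEMA6A, a transmembrane semaphorin. The pLV-SEMA6A cells were 1 stable line, so an effect of SEMA6A and a difference between the lines cannot be told apart. The labels number the libraries without saying that they came from separate cultures, so p-values measure only the spread between these libraries. Sema6a itself was listed at 98.7, 118 and 112 TPM in pLV-SEMA6A and at 0 in every pLV-Control library.

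In EMT, epithelial cells lose E-cadherin junctions and keratins and gain vimentin, N-cadherin, matrix proteins and motility. The Snail zinc finger proteins (Snai1, Snai2) and the ZEB zinc finger and homeobox proteins (Zeb1, Zeb2) bind E-boxes with the core CACCTG and repress epithelial genes such as Cdh1, recruiting corepressors. Twist1, Twist2 and Tcf4 are basic helix-loop-helix proteins that bind E-boxes as dimers, Prrx1 is a paired-type homeobox protein of mesenchyme, Tbx3 is a T-box repressor, and Foxc2 is a forkhead factor.

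The E-boxes of epithelial promoters are shown first, because the levels below concern repressors of such genes. The RefSeq promoter table for GRCm38.p6 gives 300 bases for each start site, from 250 before to 50 after it, and 5 of the 10 members and 24 of 36 epithelial target genes had an entry. The letters CACCTG and CAGGTG were searched, which are the same E-box read on either strand. At least 1 of them occurred in 6640 of 32851 promoters (20.2%). It occurred in 22 of the 31 promoters of the epithelial target genes (71%), which belong to 18 of the 24 genes (75%). By gene, the share was 22.6% over all genes with an entry and 19.3% over the tested ones. The target list holds genes that such repressors are known to act on, so its high share is no independent support. Of the promoters of epithelial guardians, the transcription factors and splicing factors that keep epithelial identity, 7 of 15 held it (46.7%), and of the promoters of mesenchymal genes 2 of 30 did (6.67%). Windows of 1 gene can overlap. The GC content had a median of 60.7% in the epithelial target windows, 57% in the mesenchymal windows and 52.7% in all windows. In the windows of tested genes the median was 61%, and 16.7% of these windows held an E-box. A match describes the letters in the window and is not a measured binding site.

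The promoters of 3 epithelial genes, each with more than 1 E-box, and the promoter of Snai1, the only one of the 5 members with an entry that had a match, are printed 5′ to 3′ on the strand of the gene with the E-boxes in capitals. They lie at chr17:87635729-87636028 (plus strand) for Epcam, chr11:69965171-69965470 (plus strand) for Cldn7 and chr17:57061951-57062250 (plus strand) for Crb3, a junction adhesion molecule, a tight junction protein and a polarity protein, and at chr2:167537945-167538244 (plus strand) for Snai1.
Epcam: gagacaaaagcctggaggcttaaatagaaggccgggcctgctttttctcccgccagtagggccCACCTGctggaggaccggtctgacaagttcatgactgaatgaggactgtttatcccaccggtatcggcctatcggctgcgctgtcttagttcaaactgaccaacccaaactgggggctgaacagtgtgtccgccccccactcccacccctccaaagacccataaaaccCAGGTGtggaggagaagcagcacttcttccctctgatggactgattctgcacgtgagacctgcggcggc
Cldn7: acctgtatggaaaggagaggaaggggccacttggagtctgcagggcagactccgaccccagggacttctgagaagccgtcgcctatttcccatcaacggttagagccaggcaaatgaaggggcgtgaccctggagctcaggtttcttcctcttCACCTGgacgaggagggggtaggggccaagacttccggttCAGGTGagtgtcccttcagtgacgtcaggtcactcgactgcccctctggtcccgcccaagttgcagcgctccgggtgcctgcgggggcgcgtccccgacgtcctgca
Crb3: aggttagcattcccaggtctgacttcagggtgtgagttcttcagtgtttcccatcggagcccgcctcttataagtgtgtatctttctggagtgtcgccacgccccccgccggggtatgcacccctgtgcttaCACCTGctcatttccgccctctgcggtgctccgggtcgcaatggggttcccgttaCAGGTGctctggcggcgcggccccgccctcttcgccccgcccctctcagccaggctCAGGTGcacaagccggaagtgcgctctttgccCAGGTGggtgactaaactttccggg
Snai1: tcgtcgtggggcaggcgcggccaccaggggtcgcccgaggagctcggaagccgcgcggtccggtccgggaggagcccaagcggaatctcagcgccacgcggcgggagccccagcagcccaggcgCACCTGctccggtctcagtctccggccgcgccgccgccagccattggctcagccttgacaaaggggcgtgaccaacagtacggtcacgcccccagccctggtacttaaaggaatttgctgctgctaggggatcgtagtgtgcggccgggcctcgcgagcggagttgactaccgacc
Counted from the start site, the first bases of the E-boxes lie at −187 and −19 in Epcam, at −97 and −57 in Cldn7, at −118, −63, −7 and 26 in Crb3, and at −126 in Snai1. A second promoter window of Cldn7, at chr11:69964529-69964828, held 0 E-boxes. Epcam and Crb3 were listed at 0 in all 6 libraries, and Cldn7 was listed at 0.22 TPM or less.

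The 10 factors were compared by TPM, a level that is scaled by transcript length and can be compared between genes. In the pLV-Control group Tcf4 was highest with 131.0 ± 8.49 TPM (SD, n = 3), followed by Snai2, Prrx1, Zeb2, Zeb1, Twist2, Twist1, Tbx3 and Foxc2, and Snai1 was lowest with 0.650 ± 0.299 TPM. The libraries of neighbours in this order did not overlap, except for Zeb1 with Twist2 and Twist2 with Twist1. In the pLV-SEMA6A group Twist2 stood above Zeb1 and Foxc2 above Tbx3, and the neighbours whose libraries overlapped were Zeb2 with Twist2 and Foxc2 with Tbx3. The summed TPM of the 10 genes was 369.7, 365.5 and 392.9 in pLV-Control and 376.9, 389.4 and 374.3 in pLV-SEMA6A, a difference smaller than the spread between libraries (two-sided exact permutation test, p = 0.6, where 3 libraries against 3 cannot go below 0.1). Snai2 and Tcf4 together made up 54.5% of that sum in pLV-Control and 60.0% in pLV-SEMA6A.

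**Figure D1:**
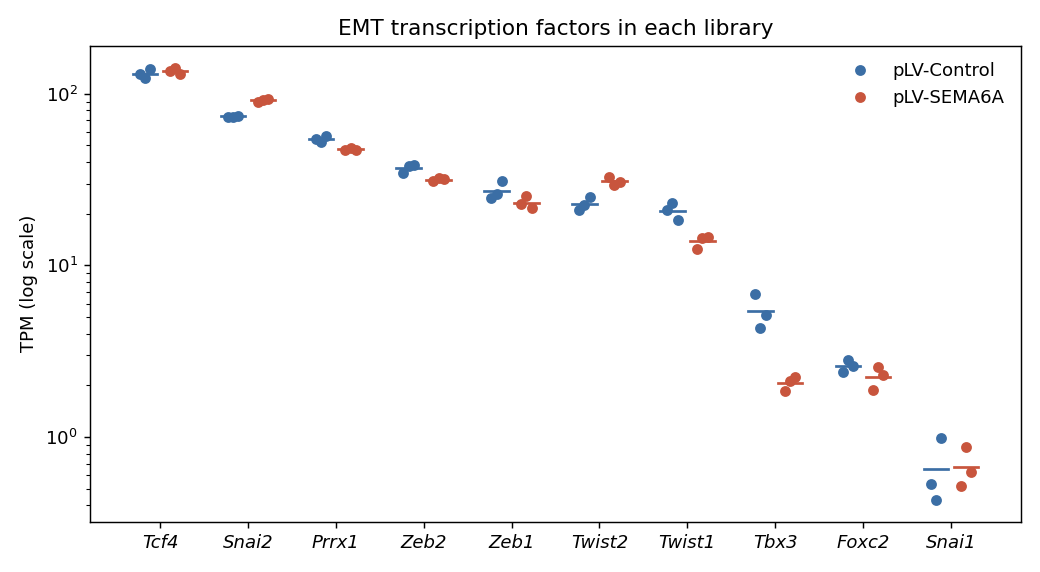
TPM (log axis) of each of the 10 factors in the 3 pLV-Control (blue) and 3 pLV-SEMA6A (red) libraries, ordered by the pLV-Control mean; points are libraries and horizontal lines are group means. The groups are apart for Snai2, Twist2, Prrx1, Zeb2, Twist1 and Tbx3 and overlap for Tcf4, Zeb1, Foxc2 and Snai1.

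Of the 9 tested factors, 6 differed between the groups at an adjusted p under 0.05 (limma on log2(TPM + 1), Benjamini-Hochberg adjustment over 12510 genes), some higher and some lower. Snai2 and Twist2 were higher in pLV-SEMA6A, where 19.5% of all tested genes were higher by this criterion, and Twist1, Tbx3, Zeb2 and Prrx1 were lower, as were 28.2% of all tested genes. With the further requirement of an absolute log2 fold change over 0.5, which defines a DEG here, 2 members were downregulated (Twist1 and Tbx3) against 10.8% of all tested genes, and 0 were upregulated against 5.12%. The same 6 factors had libraries that did not overlap between the groups, 2 higher (23.8% of all tested genes) and 4 lower (34.7%). In bulk RNA, fewer cells with a transcript and less of it per cell cannot be told apart. The median log2 fold change of the 9 factors was −0.19, and that of all tested genes was −0.06.

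Of the Snail pair, Snai2 (ENSMUSG00000022676), which in many mesenchymal and neural crest cells is the abundant Snail protein, had 73.6, 73.5 and 74.6 TPM in pLV-Control and 90.0, 91.8 and 92.7 TPM in pLV-SEMA6A. Every pLV-SEMA6A library was above every pLV-Control library. The log2 fold change was 0.30 ± 0.03 (SE; 95% CI 0.24 to 0.37; adjusted p = 0.000252), with the smallest SE of the 9 factors. Of the 31-base stretches in Snai2 transcripts, 2.92% also occur in transcripts of other genes, so part of its signal can be shared with them. Snai1 (ENSMUSG00000042821), an early and short-lived repressor in EMT, had 0.53, 0.43 and 0.99 TPM in pLV-Control and 0.52, 0.87 and 0.63 TPM in pLV-SEMA6A. It was under the mean of 1 TPM and was not tested. Its groups overlapped, and the difference of 0.03 on the log2(TPM + 1) scale changed sign when single libraries were left out. Fitted without a filter on low values, Snai1 had an adjusted p of 0.914, and the number of reads behind these values is unknown. Snai3, the remaining Snail gene, was listed at 0.17, 0.04 and 0.09 TPM in pLV-SEMA6A and at 0 in all of pLV-Control.

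The Twist paralogs moved in opposite directions. Twist1 (ENSMUSG00000035799), a driver of cranial and limb mesenchyme and of EMT in carcinoma, had 20.9, 23.0 and 18.3 TPM in pLV-Control and 12.4, 14.4 and 14.6 TPM in pLV-SEMA6A. All pLV-SEMA6A libraries were below all pLV-Control libraries, with a log2 fold change of −0.55 ± 0.10 (95% CI −0.79 to −0.31; adjusted p = 0.00452). This value is close to the minimum for a DEG: without pLV-Control replicate 2 it was −0.48 and without pLV-SEMA6A replicate 1 it was also −0.48, so that only Tbx3 remained a DEG among the members. Twist2 (ENSMUSG00000007805), which shares its DNA-binding domain with Twist1 and is active in dermal mesenchyme, had 21.1, 22.6 and 25.1 TPM in pLV-Control and 32.7, 29.5 and 30.4 TPM in pLV-SEMA6A. Here all pLV-SEMA6A libraries were above, with a log2 fold change of 0.42 ± 0.07 (95% CI 0.24 to 0.59; adjusted p = 0.00406). No 31-base stretch of a Twist1 or Twist2 transcript occurs in transcripts of another gene when both are read 5′ to 3′. The pair thus shares no stretch of that length in this direction, and the opposite strand was not searched.

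Within a library the ratio of Twist2 to Twist1 does not depend on how the library is scaled. It was 1.01, 0.981 and 1.37 in the pLV-Control libraries and 2.63, 2.05 and 2.08 in the pLV-SEMA6A libraries. Levels were near equal in pLV-Control replicates 1 and 2. Twist2 was above Twist1 in pLV-Control replicate 3 and, by more, in all pLV-SEMA6A libraries. The log2 ratio was 0.15 ± 0.27 (SD, n = 3) in pLV-Control and 1.16 ± 0.20 in pLV-SEMA6A, a difference of 1.02. The libraries did not overlap, and the two-sided exact permutation test gave its smallest possible p of 0.1 (0.3 after Benjamini-Hochberg adjustment over the 3 paralog ratios computed). The ratio of Zeb2 to Zeb1 was 1.39, 1.46 and 1.25 in pLV-Control and 1.35, 1.27 and 1.48 in pLV-SEMA6A, a difference of 0.0016 in log2 ratio (exact permutation p = 1). The ratio of Snai2 to Snai1 ran from 75.4 to 171 in pLV-Control and from 105 to 173 in pLV-SEMA6A, which overlapped (exact permutation p = 0.6).

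**Figure D2:**
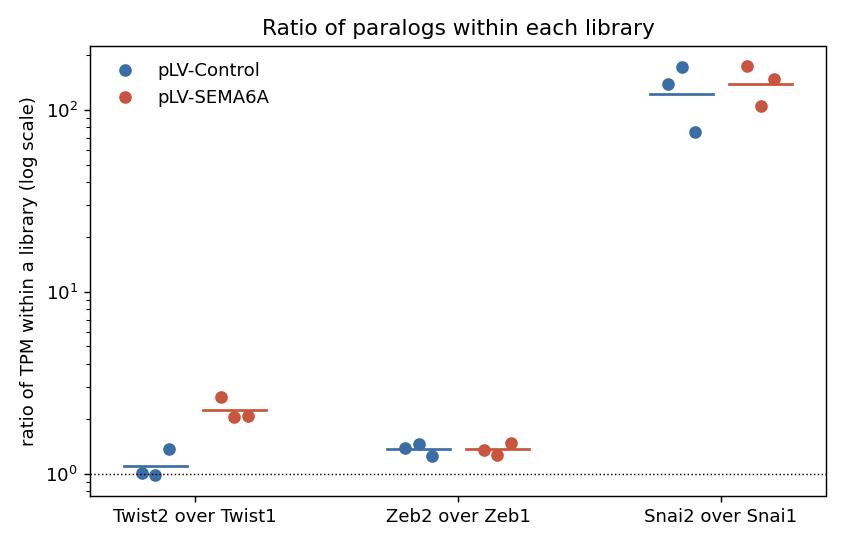
Ratio of the TPM of 2 paralogs within each library (log axis) for Twist2 over Twist1, Zeb2 over Zeb1 and Snai2 over Snai1; points are libraries, lines are geometric means, and the dotted line marks equal levels. The Twist ratio is 1.37 or less in pLV-Control and 2.05 or more in pLV-SEMA6A, and the other ratios overlap between the groups.

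The ZEB proteins are the repressors of Cdh1 that the miR-200 family holds down in epithelia. Zeb2 (ENSMUSG00000026872) had 34.4, 38.0 and 38.6 TPM in pLV-Control and 30.9, 32.2 and 31.8 TPM in pLV-SEMA6A. The groups did not overlap, and the log2 fold change was −0.22 ± 0.05 (95% CI −0.35 to −0.09; adjusted p = 0.0149). The adjusted p was 0.0512 without pLV-Control replicate 2. Zeb2os, an antisense transcript at the Zeb2 locus, had 1.44, 1.62 and 1.15 TPM in pLV-Control and 1.15, 1.60 and 2.02 TPM in pLV-SEMA6A (adjusted p = 0.682). The strand setting of the counting is not given in the sources used here, so reads of Zeb2 and Zeb2os from their shared stretch cannot be told apart. Genes on the opposite strand also overlap the spans of Twist2, Zeb1, Prrx1 and Tbx3, and the same limit holds for any transcribed stretch shared there. Zeb1 (ENSMUSG00000024238) had 24.8, 25.9 and 30.95 TPM in pLV-Control and 22.9, 25.3 and 21.5 TPM in pLV-SEMA6A. Its groups overlapped through pLV-Control replicate 1 and pLV-SEMA6A replicate 2, and the log2 fold change of −0.22 had an SE of 0.10, a 95% CI of −0.45 to 0.02 and an adjusted p of 0.109. The Zeb1 estimate is as large as that of Zeb2, with a wider interval.

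Prrx1 (ENSMUSG00000026586), which marks limb and craniofacial mesenchyme, had 54.6, 52.3 and 56.9 TPM in pLV-Control and 47.3, 48.5 and 47.1 TPM in pLV-SEMA6A. The groups did not overlap, and the log2 fold change was −0.19 ± 0.04 (95% CI −0.29 to −0.09; adjusted p = 0.0092). Tbx3 (ENSMUSG00000018604), a repressor with roles in limb, heart and mammary development, had the largest change of the 9 tested factors from a low level. It had 6.84, 4.32 and 5.14 TPM in pLV-Control and 1.85, 2.11 and 2.25 TPM in pLV-SEMA6A. No pLV-SEMA6A library reached the lowest pLV-Control library, and the log2 fold change was −1.05 ± 0.16 (95% CI −1.44 to −0.66; adjusted p = 0.00229).

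Tcf4 (ENSMUSG00000053477), which encodes the E protein E2-2 and is a dimer partner of other basic helix-loop-helix factors, had 130.4, 122.8 and 139.8 TPM in pLV-Control and 136.4, 142.1 and 131.0 TPM in pLV-SEMA6A. The groups overlapped, with a log2 fold change of 0.06 ± 0.05 (95% CI −0.07 to 0.19; adjusted p = 0.395). Foxc2 (ENSMUSG00000046714), a factor of mesoderm and lymphatic vessels, had 2.40, 2.82 and 2.61 TPM in pLV-Control and 1.87, 2.57 and 2.31 TPM in pLV-SEMA6A, which also overlapped (log2 fold change −0.16, 95% CI −0.47 to 0.16, adjusted p = 0.365). The intervals allow a rise or a fall of either gene. Foxc1, the paralog of Foxc2 from the list of other EMT-linked factors, had 10.98, 11.8 and 10.9 TPM in pLV-Control and 8.01, 8.70 and 7.69 TPM in pLV-SEMA6A (log2 fold change −0.42, adjusted p = 0.00299), and 1.37% of the 31-base stretches of Foxc2 occur in other genes, mainly Foxc1.

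TPM gives shares of a library, and centring each library on its median log2(TPM + 1) moved the median log2 fold change of all tested genes by 0.09, from −0.06 to 0.03. All 9 factors kept their direction. Relative to the library median, Twist2 rose by 0.51 and passed the minimum for a DEG (adjusted p = 0.00176), Twist1 was at −0.46 (adjusted p = 0.0102) and no longer passed it, and Tbx3 stayed a DEG at −0.96 (adjusted p = 0.00334). Snai2 was at 0.40 (adjusted p = 9.07e-05). Zeb2 at −0.12 (adjusted p = 0.1) and Prrx1 at −0.10 (adjusted p = 0.0848) were no longer past the threshold, and Tcf4 at 0.15 lay just outside it (adjusted p = 0.05).

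**Figure D3:**
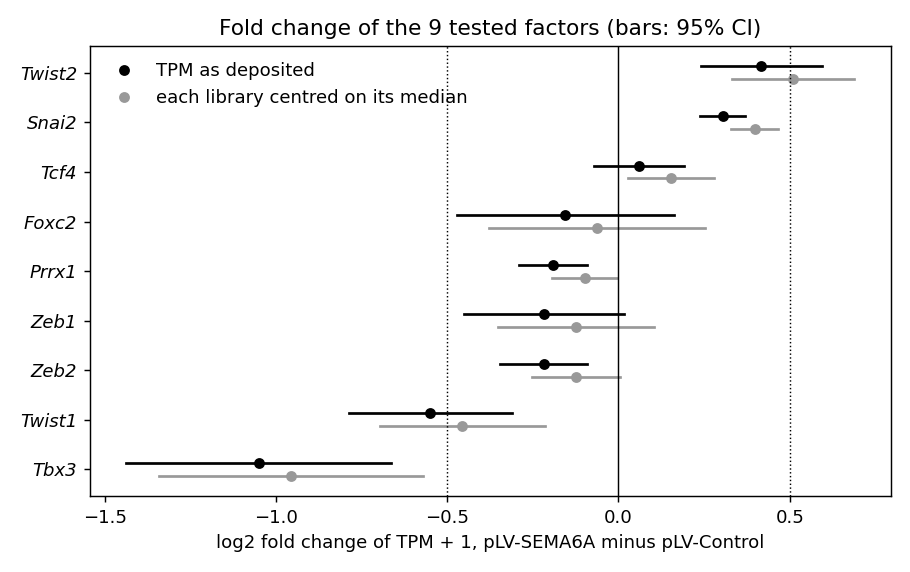
Log2 fold change of TPM + 1 (pLV-SEMA6A minus pLV-Control) of the 9 tested factors with 95% confidence intervals from limma, for TPM as deposited (black) and with each library centred on its median (grey); dotted lines mark the minimum of 0.5 for a DEG. Tbx3 and Twist1 lie below 0 and Snai2 and Twist2 above 0 under both scalings, while the grey intervals of Zeb2 and Prrx1 reach close to or past 0.

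The other EMT-linked factors, a list of 25 genes with 18 tested, held 1 upregulated and 1 downregulated DEG, and 4 were higher and 8 lower at an adjusted p under 0.05, with a median log2 fold change of −0.20. Sox9, an HMG-box factor of chondrocytes and intestinal crypts, had 11.9, 12.1 and 12.1 TPM in pLV-Control and 19.1, 19.9 and 17.8 TPM in pLV-SEMA6A (log2 fold change 0.61, adjusted p = 0.000258). Sox4, which is induced by TGF-β, had 39.7, 39.4 and 40.0 TPM in pLV-Control and 23.4, 27.3 and 25.0 TPM in pLV-SEMA6A (−0.64, adjusted p = 0.000281). Changes in both directions stood side by side here, as among the 10 members and among all tested genes. Of all tested genes, 19.5% were higher and 28.2% lower at an adjusted p under 0.05, and 5.12% were upregulated and 10.8% downregulated DEGs.

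Twist proteins bind DNA as dimers with E proteins, and the Id proteins sequester E proteins without binding DNA. Of 14 genes in the list of dimer partners and Id proteins, 6 were tested, with a median log2 fold change of 0.54. Of these, 3 were upregulated DEGs, among them Id3 and Id1 but not Id2, against 5.12% of all tested genes. Downregulated DEGs numbered 0, against 10.8% of all tested genes. Id3 had 10.4, 10 and 9.92 TPM in pLV-Control and 20.1, 21.6 and 21.5 TPM in pLV-SEMA6A (0.99 ± 0.05, adjusted p = 3.39e-05). Id1 had 8.91, 8.90 and 7.30 TPM in pLV-Control and 16.4, 17.3 and 15.4 TPM in pLV-SEMA6A (0.89 ± 0.09, adjusted p = 0.000394). The groups were apart for both genes. Id2 rose from 4.24 ± 0.279 TPM to 6.12 ± 0.514 TPM (SD, n = 3; log2 fold change 0.44, adjusted p = 0.00845). The E protein genes Tcf3 and Tcf12 did not pass the test. Tcf3 had 46.5, 46.3 and 48.7 TPM against 40.2, 42.7 and 44.9 TPM (−0.15, adjusted p = 0.0528). Tcf12 had 67.7, 70.5 and 69.7 TPM against 67.9, 68.0 and 66.6 TPM (−0.04, adjusted p = 0.353). With median centring the log2 fold change of Tcf12 changed sign, to 0.056.

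Repressors of the Snail and ZEB type act through LSD1, HDACs, Polycomb proteins and CtBP. All 38 genes of the list of corepressors and chromatin partners were tested, with a median log2 fold change of 0.11. At an adjusted p under 0.05, 16 of the list were higher and 4 lower, against 19.5% and 28.2% of all tested genes. Only 1 gene of the list was a DEG: Lmcd1, a LIM domain protein, had 5.12, 5.85 and 6.72 TPM in pLV-Control and 3.75, 3.15 and 2.81 TPM in pLV-SEMA6A (−0.70, adjusted p = 0.00507). The Snail and Twist proteins are turned over by ubiquitin ligases and kept by deubiquitinases. Of 41 genes of protein turnover, 37 were tested, and their median log2 fold change was −0.08. Among them 2 were upregulated and 4 downregulated DEGs, against 5.12% and 10.8% of all tested genes. Usp1, a deubiquitinase, had 41.4, 42.7 and 44.5 TPM in pLV-Control and 69.6, 70.8 and 68.6 TPM in pLV-SEMA6A (0.69, adjusted p = 3.69e-05). Rbx1, the RING subunit of cullin ligases, rose by 0.61 (adjusted p = 0.000592). Fbxl12, an F-box protein, had 17.4, 28.2 and 19.0 TPM in pLV-Control and 8, 10.01 and 10.4 TPM in pLV-SEMA6A (−1.08, adjusted p = 0.00375), and Lats2, a Hippo pathway kinase, fell by 0.68 on the log2 scale (adjusted p = 0.000863). These are transcript levels, and protein amounts of the factors are not analysed here.

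Signals that induce the factors in other settings include TGF-β, Notch, Wnt and YAP. The list of 47 genes of such signalling also holds inhibitors and target genes of these pathways, so its counts give no direction of a signal. Of the 47, 37 were tested, with a median log2 fold change of −0.02. Among them 1 was an upregulated and 5 were downregulated DEGs, against 5.12% and 10.8% of all tested genes. At an adjusted p under 0.05, 8 were higher and 8 lower, against 19.5% and 28.2% of all tested genes. Ccn1, a matricellular protein and common readout of YAP activity, had 720.5, 755.4 and 741.8 TPM in pLV-Control and 305.9, 323.6 and 311.4 TPM in pLV-SEMA6A (−1.23, adjusted p = 1.31e-06). Tgfb1, the TGF-β1 ligand, had 21.5, 20.8 and 21.7 TPM in pLV-Control and 9.49, 12.7 and 10.1 TPM in pLV-SEMA6A (−0.93, adjusted p = 0.00059). Hes1, a Notch target, had 6.56, 7.28 and 4.70 TPM in pLV-Control and 12.3, 8.43 and 10.8 TPM in pLV-SEMA6A (0.68, adjusted p = 0.0209), and its adjusted p was above 0.05 without pLV-SEMA6A replicate 1 (0.0632) or replicate 3 (0.0624) and without a filter on low values (0.0552).

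Most of the epithelial genes that these factors are known to repress were near or at 0 in both groups. Of 36 epithelial target genes, 31 were below 1 TPM in all 6 libraries. Cdh1, the E-cadherin gene and best-known target of Snail and ZEB proteins, had 0.03, 0 and 0 TPM in pLV-Control and 0.03, 0 and 0.01 TPM in pLV-SEMA6A, and Epcam was listed at 0 in all libraries. Of the 4 tested targets, 0 were DEGs, while Pkp2, a desmosomal protein, was higher (0.32, adjusted p = 0.0158) and Tjp1, the junction scaffold ZO-1, was lower (−0.16, adjusted p = 0.0118). Among 20 epithelial guardians, which in epithelia restrain Zeb1 and other members, 16 were below 1 TPM in all libraries and 7 were listed at 0 throughout. Grhl2 had 0.55, 0.14 and 0.15 TPM in pLV-Control and 0.18, 0.18 and 0.13 TPM in pLV-SEMA6A. Ovol1, Ovol2, Esrp1 and Esrp2 were at 0.05 TPM or less in every library. Gata6, an endodermal factor and the only DEG of the guardians, had 3.49, 5.09 and 3.75 TPM in pLV-Control and 2.78, 2.20 and 2.63 TPM in pLV-SEMA6A (−0.52, adjusted p = 0.0285). Its adjusted p was 0.0699 without pLV-Control replicate 2, 0.053 without pLV-Control replicate 3, 0.08 without pLV-SEMA6A replicate 2 and 0.0613 without pLV-SEMA6A replicate 3, and 0.0744 in the fit with a replicate block, 0.0829 without a filter on low values and 0.0582 with median centring (log2 fold change −0.43). With centring the only DEG of the guardians was Elf3, an ETS factor of epithelia (0.51, adjusted p = 0.00652). In the main fit Elf3 was higher (0.41, adjusted p = 0.0153) and Gata4 lower (−0.29, adjusted p = 0.00765), both short of the minimum for a DEG. Klf5 did not pass the test there (−0.11, adjusted p = 0.336).

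The colorectal label was checked against markers of the colon epithelium. Of 16 markers, 15 were below 1 TPM in every library and 5 were listed at 0 in all of them, Cdx1 and Cdx2 included, and the sum of the 16 was 2.26 to 3 TPM in pLV-Control and 0.71 to 1.60 TPM in pLV-SEMA6A. Lgals4, the exception, had 1.78, 2.33 and 2.33 TPM in pLV-Control and 0, 0.28 and 0.81 TPM in pLV-SEMA6A. The defining markers of the labelled tissue were thus listed at or near 0. Of the fibroblast markers, Acta2 and Col1a1 were upregulated and Pdgfra and Pdgfrb downregulated DEGs, and the sum of the 10 markers, carried mostly by Acta2, was 47.5 to 50.4 TPM in pLV-Control and 107 to 111 TPM in pLV-SEMA6A. The summed levels were 1.10 to 2.45 against 2.04 to 2.34 TPM for 8 endothelial markers, 1.00 to 2.75 against 0.90 to 1.70 TPM for 11 leukocyte markers, and 3.58 to 4.54 against 3.71 to 4.42 TPM for 8 markers of neural crest and melanocytes. Of these lists, Cdh5, Ptprc and Sox10 were listed at 0.04 TPM or less. The part of other cell types in the members' differences was not tested.

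**Figure D4:**
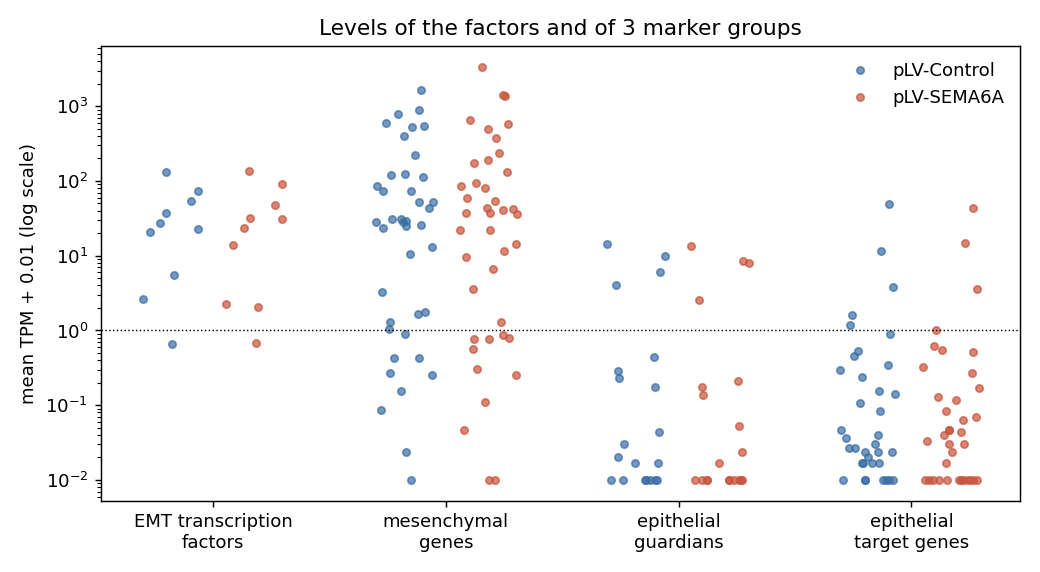
Mean TPM + 0.01 (log axis) in pLV-Control (blue) and pLV-SEMA6A (red) of the 10 EMT transcription factors, 41 mesenchymal genes, 20 epithelial guardians and 36 epithelial target genes; each point is a gene, points at 0.01 are listed at 0, and the dotted line marks 1 TPM. Means of at least 1 TPM over the libraries were found for 9 factors and 31 mesenchymal genes, against 4 guardians and 4 epithelial targets.

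Mesenchymal genes, which the factors accompany in EMT, were expressed in both groups and changed in both directions. Of 41 genes, 31 were tested, with a median log2 fold change of 0.09. Among them 10 were upregulated and 3 downregulated DEGs, against 5.12% and 10.8% of all tested genes. At an adjusted p under 0.05, 14 were higher and 11 lower, against 19.5% and 28.2% of all tested genes. S100a4, a calcium-binding protein of motile cells, had 791.9, 810.8 and 768.2 TPM in pLV-Control and 3490, 3375 and 3317 TPM in pLV-SEMA6A (2.10 ± 0.03, adjusted p = 1.42e-07). Acta2, smooth muscle actin, had 30.3, 29.9 and 33.4 TPM in pLV-Control and 90.8, 95.7 and 95.7 TPM in pLV-SEMA6A (1.57 ± 0.05, adjusted p = 4.8e-06). Vim, the vimentin gene, rose from 895.8 ± 10.5 to 1407 ± 19.4 TPM (0.65, adjusted p = 2.66e-06), and Cdh2, the N-cadherin gene, from 29.3 ± 1.11 to 36.7 ± 1.1 TPM (0.32, adjusted p = 0.00164). Fn1, the fibronectin gene, fell from 1635 ± 35.2 to 1372 ± 49.2 TPM (−0.25, adjusted p = 0.000845). Pdgfra, a growth factor receptor of mesenchyme, fell by 0.63 on the log2 scale from 1.76 ± 0.333 TPM (adjusted p = 0.0219), a call that was lost without pLV-Control replicate 2 (adjusted p = 0.0731), without pLV-SEMA6A replicate 2 (0.0596) or replicate 3 (0.0511), and with the replicate block (0.0681).

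**Figure D5:**
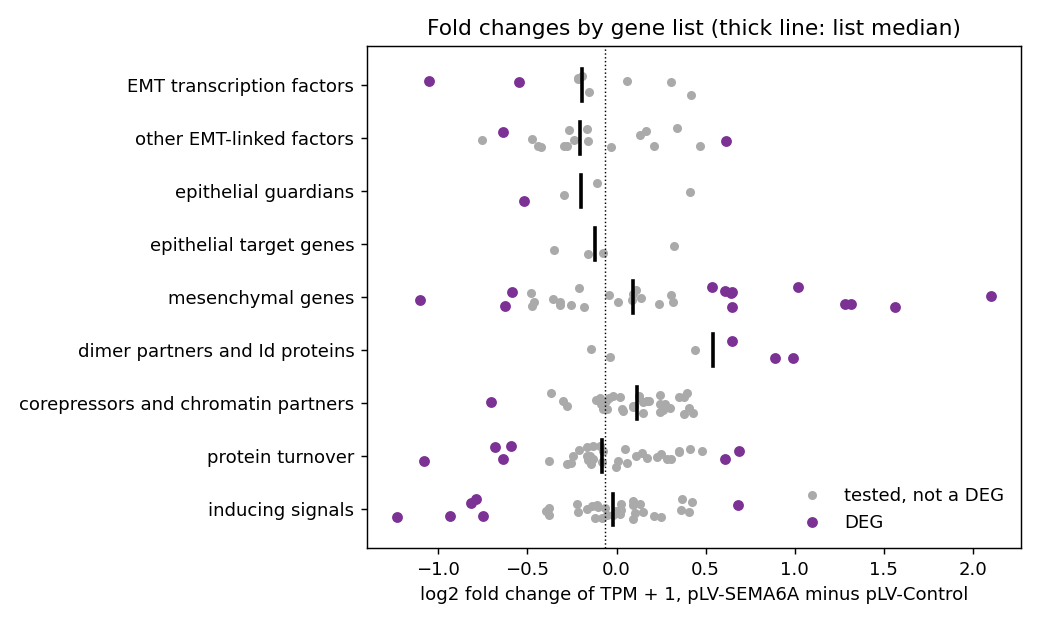
Log2 fold change of TPM + 1 (pLV-SEMA6A minus pLV-Control) of the tested genes of each list; purple points are DEGs, grey points are other tested genes, thick lines are list medians and the dotted line is the median of all tested genes, −0.06. The factors include 2 DEGs, both below 0, the Id and dimer partner list 3 above 0, and the mesenchymal genes 10 above and 3 below 0.

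The study's RT-qPCR primer table has 31 entries, and 5 of them are named for members: SNAIL1, SNAIL2, TWIST, ZEB1 and ZEB2. The 10 primers of these entries were compared with 141767 mouse transcripts of GENCODE M21, and 0 of them occurred in full on either strand of any transcript. The fewest mismatches to a transcript of the mouse gene of the same name, without gaps, ranged from 1 to 9 over primers of 20 to 25 bases. Of the 26 primers whose entry carries the suffix -M, 25 occurred in full in a mouse transcript, and of the 36 without it 1 did. The study also used human CRC lines, and the table does not say on which RNA each entry was used. For pLV-SEMA6A against control cells, the study reports lower EMT-related markers by RT-qPCR, and its text does not name these markers. At the protein level, by immunofluorescence, it reports more E-cadherin and less vimentin in pLV-SEMA6A cells. After SEMA6A knockdown in human LoVo cells it reports higher EMT markers. The primers of SNAIL1 and TWIST, the entries closest to their mouse genes, are printed 5′ to 3′ with the bases that mismatch the best ungapped site in Snai1 or Twist1 in capitals.
SNAIL1 forward: gTctgAccGatgtgtctccc
SNAIL1 reverse: tgtaaacatcttCctcccAggC
TWIST forward: aaaggcatcActAtggactTTctcT
TWIST reverse: atgGttttgcaggccagtttg
The mismatches number 3 and 3 for SNAIL1 and 5 and 1 for TWIST. The table groups no entries by function, and its entries FGF7, COL3A1, VIMENTIN and CTNNB were set beside the 5 members here, while S100A, which names no single S100 gene, was not. Of these 9 mouse genes, 8 were tested. At an adjusted p under 0.05, Snai2, Vim, Col3a1 and Ctnnb1 were higher in pLV-SEMA6A and Twist1, Zeb2 and Fgf7 were lower. Col3a1, a fibrillar collagen gene, had 124.9, 121.5 and 109.6 TPM in pLV-Control and 168.2, 171.9 and 175.9 TPM in pLV-SEMA6A (0.53, adjusted p = 0.000345). Fgf7, a growth factor made by mesenchyme, had 51.8, 47.7 and 57.5 TPM in pLV-Control and 41.7, 38.5 and 41.6 TPM in pLV-SEMA6A (−0.36, adjusted p = 0.00781). Ctnnb1, the β-catenin gene, had 205.3, 209.4 and 203.3 TPM in pLV-Control and 268.9, 271.2 and 280.7 TPM in pLV-SEMA6A (0.41, adjusted p = 6.32e-05).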

How the data were processed

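Poly-A-selected mRNA of SL4 cells was sequenced on an Illumina platform from 3 pLV-Control and 3 pLV-SEMA6A libraries, which were grouped by their titles. The authors deposited TPM per gene and library, and group means that were not used. The unit is inferred from library totals of 977400 to 986444 and from RSEM, named with Bowtie2, HISAT and build mm39 in the submitters' processing notes; versions, annotation and strand setting are not given in the sources used here. TPM keeps no depth, so no detection limit was computed.

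The 12510 genes that averaged 1 TPM or more were tested with limma 3.58.1 (trend option, R 4.3.3) on log2(TPM + 1) with group as the only term and Benjamini-Hochberg adjustment, which understates changes of low genes. A DEG needed an adjusted p below 0.05 and a log2 fold change beyond 0.5 in either direction. The test was checked on simulated data. The members and lists were chosen with earlier results of these data known. Besides the members, the genes named are fixed comparison genes, the genes of the primer table and, of each list, up to 2 DEGs with the largest rise and up to 2 with the largest fall. Foxc1, Pkp2, Tjp1, Elf3, Gata4 and Klf5, the promoters printed and the markers quoted were named after their values were seen. For 1 gene under this rule, no result is reported here.

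Transcript comparisons used GENCODE M21 (GRCm38) and promoters RefSeq's GRCm38.p6 windows. Gene positions are not printed, as that build differs from the one of the notes. Alternatives were no filter, a pseudocount of 0.1, other minimum fold changes, the replicate block, median centring, limma without trend and leaving out each library.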

Additional observations from a re-analysis of the deposited data

How the results depend on the processing

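The number of DEGs among the 12510 tested genes was 1987, with 640 higher and 1347 lower. Centring each library on its median changed this split to 1002 and 961. Leaving out single libraries gave 1900 to 1975 DEGs, 1 to 2 DEGs among the EMT transcription factors, 0 to 1 among the epithelial guardians, and log2 fold changes of Zeb2 from −0.27 to −0.19. Without a minimum fold change, the counts of genes past the threshold were 5959 in all, 6 EMT transcription factors, 12 other EMT-linked factors, 3 epithelial guardians, 2 epithelial target genes, 25 mesenchymal genes, 20 corepressors and chromatin partners, 23 genes of protein turnover and 16 inducing signals. At a minimum log2 fold change of 1 they were 385 in all, 1 EMT transcription factor, 0 other EMT-linked factors, 0 epithelial guardians, 6 mesenchymal genes, 0 dimer partners and Id proteins, 0 corepressors and chromatin partners, 1 gene of protein turnover and 1 inducing signal. Without a filter on low values 0 epithelial guardians were DEGs. With centring, 3 corepressors and chromatin partners were DEGs, and Zeb2 (−0.12) and Prrx1 (−0.10) were not past the threshold. Twist1, Twist2, Snai2 and Tbx3 kept their direction and an adjusted p under 0.05 under all alternatives run, with ranges of −0.63 to −0.46 for Twist1, 0.36 to 0.51 for Twist2, 0.30 to 0.40 for Snai2 and −1.33 to −0.90 for Tbx3. Snai1 ranged from −0.07 to 0.17. Of 330 values of 30 other named genes under alternatives, 313 kept their direction and side of the threshold, 14 lost the threshold, 1 gained it and 2 changed sign, neither past the threshold: Tcf12 was at 0.056 with centring, and Zeb2os ran from −0.0188 to 0.2263 when single libraries were left out. The cause was not tested.

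In the fit with a replicate block there were 1924 DEGs, with 2 EMT transcription factors, 0 epithelial guardians and 12 mesenchymal genes among them. The deviations of same-numbered libraries correlated by −0.06 on average and those of other pairs by 0.03, so the numbers were not treated as a pairing.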
